A study of Mus musculus with 35 samples.

Results

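The response of mouse lung to ventilation with a large tidal volume under raised CO2 was measured as the difference between 2 groups of arrays: high stretch with hypercapnia (10 arrays) and low stretch with hypercapnia (5 arrays), 15 of the 35 arrays of the series. The arrays were chosen by their titles and all 19938 genes with a usable probe set were tested. The strain was C57BL/6J, a common inbred line, the mice were adult males on a normal diet, and each array held the lung RNA of 1 animal. High stretch hypercapnia mice were ventilated for 3 h at a tidal volume of about 35 to 40 mL/kg with inspiratory pressure peaking at 27 cmH2O, no positive end-expiratory pressure (PEEP) and 30 to 35 breaths per minute, with an inspired oxygen fraction of 0.75 and an inspired CO2 fraction of 0.12. Low stretch hypercapnia mice were ventilated for 3 h at 10 mL/kg, a PEEP of 2 cmH2O and 135 breaths per minute, with the same CO2 fraction of 0.12 made up with room air. Tidal volume, PEEP, breathing rate and inspired oxygen therefore all differed between the groups, and their effects cannot be told apart. Both groups shared anaesthesia, tracheostomy, mechanical ventilation and inspired CO2, and all lungs were lavaged before they were frozen. The other groups, used here only for orientation, were high stretch normocapnia (10 arrays, as high stretch hypercapnia but without CO2), low stretch normocapnia (5 arrays, as low stretch hypercapnia but without CO2) and spontaneously breathing, non-ventilated mice (5 arrays). The title of the series sets the question of how hypercapnia bears on ventilator-induced lung injury, and this comparison addresses what the high stretch settings changed while CO2 was raised.

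Overdistension of the lung deforms epithelial and endothelial cells, which sense it through ion channels, the cytoskeleton, released ATP and shed growth factors. Deformed cells activate MAP kinases and transcribe immediate-early genes without prior protein synthesis. Their products, such as the AP-1 and EGR transcription factors, drive further genes. Cytokines, prostaglandins, coagulation factors and matrix enzymes follow, and the term biotrauma is used for this release. Raised CO2 acidifies blood and tissue and is known from other work to dampen NF-kappaB signalling and to slow membrane repair.

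Values are deposited log2 signals, so that a difference of 1 is a 2-fold difference, and probe sets of different genes are not compared in level. Array medians over the 19938 genes lay between 7.37 and 7.48 in all 35 arrays. The SD over genes of an array was 2.07 ± 0.03 in the high stretch hypercapnia arrays and 2.04 ± 0.04 in the low stretch hypercapnia arrays (SD, n = 10 and 5, exact two-sided permutation p 0.127). The number of arrays limits the precision. As a check of the tissue, 6 lung-defining genes picked outside the naming rule were bright on every array of both groups. The surfactant gene Sftpc lay at 13.97, 14.02 and 14.05 in the high stretch arrays (lowest, median and highest) and 13.94, 13.98, 14.01, 14.05 and 14.05 in the low stretch arrays. Sftpa1, Sftpb, the club cell gene Scgb1a1, the type 1 cell gene Ager and the endothelial gene Pecam1 had log2 changes between -0.06 and -0.01. Low stretch hypercapnia replicate 1 stood apart from its group: it had the lowest correlation of the 15 arrays with the rest of its group (0.991, highest 0.997) and the lowest SD over genes (1.99). Its neutrophil markers averaged 9.49 log2 units, the highest value of the low stretch group. The total count, calls that changed without it and genes in which it is said to lie among the high stretch arrays are given with and without it.

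High stretch in hypercapnia changed 2017 of 19938 genes at an adjusted p under 0.05 (10.1%), 1082 of them higher (5.43%) and 935 lower (4.69%). Rises were larger than falls. Of the genes that rose, 39 (0.196%) did so by at least 1 log2 unit and 208 (1.04%) by at least 0.5. Of those that fell, 0 reached 1 log2 unit and 55 (0.276%) reached 0.5. The median change over all genes was -0.03. All 10 high stretch arrays lay above all 5 low stretch arrays in 367 genes (1.84%) and below them in 181 (0.908%), and 526 genes (2.64%) were both called and free of overlap. With each array centred on its median the calls were 1458 higher and 716 lower, so 67.1% of calls were rises, against 53.6% as deposited. Falls were the majority without low stretch replicate 1, with 2101 calls, 1003 higher and 1098 lower (47.7% rises), and with the SD over genes of each array as a covariate, with 1007 higher and 1231 lower (45.0%). The count was 1278 without low stretch replicate 5, 61.8% of them rises.

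The largest rise was that of Il6, which encodes the inflammatory cytokine interleukin-6. Il6 lay at 6.63, 7.46 and 8.23 in the high stretch arrays, against 4.90, 4.49, 4.18, 4.61 and 5.03 in the low stretch arrays (for the 10 high stretch arrays the lowest, median and highest value are given throughout). The groups were far apart and did not overlap, and the low stretch arrays were near the non-ventilated mean of 4.33. Both lay far below the array medians of 7.37 to 7.48, and whether they stood above background was not tested. The change was 2.72 ± 0.24 (SE, 6.57-fold, adjusted p 1.06e-09). Cldn4, a tight junction claudin of stressed alveolar epithelium, lay at 10.07, 10.48 and 10.80 in the high stretch arrays, against 8.22, 8.48, 8.44, 8.68 and 8.22 in the low stretch arrays. Every high stretch array was more than 1 log2 unit above every low stretch array. The change of Cldn4 was 2.08 ± 0.14 (SE, 4.23-fold, adjusted p 2.41e-12).

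Ptgs2, the inducible cyclooxygenase that starts prostaglandin synthesis, had signals of 11.20, 11.42 and 12.20 in the high stretch arrays, against 10.10, 9.27, 9.16, 9.84 and 8.82 in the low stretch arrays. The groups did not overlap, although low stretch replicates 1 and 4 were the higher ones of their group. Its change was 2.06 ± 0.23 (SE, 4.18-fold, adjusted p 8.21e-08). Atf3, a stress-induced transcription factor of the ATF and CREB family, stood at 9.90, 10.17 and 10.66 in the high stretch arrays, against 8.72, 8.27, 7.86, 8.61 and 7.67 in the low stretch arrays. Again all high stretch arrays lay above all low stretch arrays, and the change was 2.03 ± 0.24 (SE, 4.07-fold, adjusted p 2.46e-07). These were the 4 genes whose rise reached 2 log2 units. Their promoters are shown because AP-1 and NF-kappaB factors act through short motifs near the start of transcription. Each run is the 250 bases before the start site, 5′ to 3′ on the gene's strand, from RefSeq (GRCm38.p6), with capitals marking matches to the motifs searched.
Il6, chr5:30012864-30013113, plus strand: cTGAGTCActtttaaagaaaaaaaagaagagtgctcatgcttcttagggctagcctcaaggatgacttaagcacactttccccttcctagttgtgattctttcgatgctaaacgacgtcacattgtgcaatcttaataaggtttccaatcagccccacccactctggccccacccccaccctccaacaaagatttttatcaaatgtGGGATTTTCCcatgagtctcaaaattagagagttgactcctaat
Cldn4, chr5:134946935-134947184, minus strand: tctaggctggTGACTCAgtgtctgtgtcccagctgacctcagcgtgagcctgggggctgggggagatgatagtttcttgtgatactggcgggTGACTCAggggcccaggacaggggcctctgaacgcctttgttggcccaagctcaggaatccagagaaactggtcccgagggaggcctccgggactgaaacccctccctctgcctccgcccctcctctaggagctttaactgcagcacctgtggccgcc
Ptgs2, chr1:150099781-150100030, plus strand: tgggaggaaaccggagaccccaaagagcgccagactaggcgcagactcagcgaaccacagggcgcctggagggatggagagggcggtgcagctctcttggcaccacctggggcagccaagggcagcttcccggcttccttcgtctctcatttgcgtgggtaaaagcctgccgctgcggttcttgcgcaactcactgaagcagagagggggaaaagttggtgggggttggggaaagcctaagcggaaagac
Atf3, chr1:191183334-191183583, minus strand: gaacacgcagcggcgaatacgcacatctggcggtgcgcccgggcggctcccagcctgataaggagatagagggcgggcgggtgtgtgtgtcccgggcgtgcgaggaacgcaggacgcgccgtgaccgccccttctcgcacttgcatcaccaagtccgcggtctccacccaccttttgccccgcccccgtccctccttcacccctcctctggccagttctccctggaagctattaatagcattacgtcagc
The motifs were the AP-1 site TGANTCA, the cyclic AMP response element TGACGTCA, the CArG box of serum response factor and the kappaB site of NF-kappaB, on both strands. Il6 held an AP-1 match from -249 to -243 and a kappaB match from -44 to -35, counted back from the base before the start site. Cldn4 held AP-1 matches from -240 to -234 and from -158 to -152. The windows of Ptgs2 and Atf3 held none of these letters. An AP-1 match was found in 6.87% of all 27018 promoters of this length, in 14.8% of the 142 promoters matched to the 208 genes that rose by at least 0.5, and in 4.76% of the 42 matched to the 55 genes that fell by at least 0.5. The kappaB site was found in 3.75% of all promoters, 7.75% of those of rising genes and 0.0% of those of falling genes, and the cyclic AMP element in 1.62, 5.63 and 0.0% in the same order. CArG boxes were found in 1.4, 2.11 and 0.0%. Of the 24 promoters matched to the list of immediate-early transcription factors, 0 held an AP-1 match, 5 a kappaB site (20.8%), 2 a CArG box (8.33%) and 1 the cyclic AMP element (4.17%). A match is a description of the sequence, not a bound site.

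**Figure D1:**
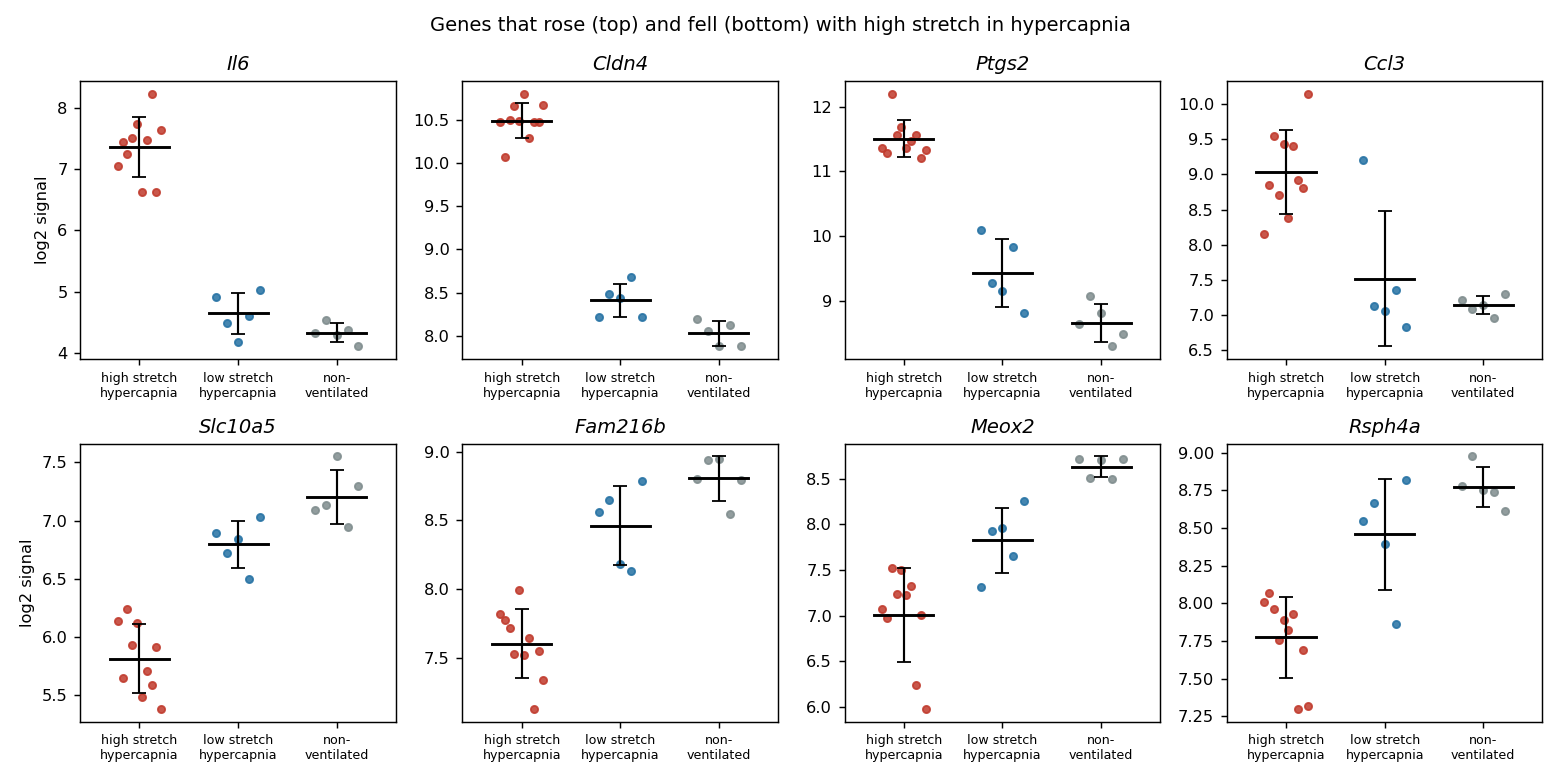
Signal (log2, vertical axis, not starting at 0) of 4 genes that rose (top row) and 4 that fell (bottom row) in high stretch hypercapnia (red, 10 arrays), low stretch hypercapnia (blue, 5 arrays) and non-ventilated lungs (grey, 5 arrays). Each point is 1 array, horizontal bars are means and error bars SD. The red and blue points do not overlap for Il6, Cldn4, Ptgs2, Slc10a5 and Fam216b, whereas 1 blue point of Ccl3, low stretch replicate 1 at 9.20, lies among the red ones.

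Below these 4, the 15 largest rises were completed by transcription factors, matrix genes and inflammatory genes. Sfn, the epithelial 14-3-3 sigma protein, had signals of 9.45, 10.30 and 10.47 in the high stretch arrays, against 8.43, 8.58, 9.07, 8.99 and 7.86 in the low stretch arrays. Its groups were separate, and its change was 1.59 ± 0.24 (SE, 3.01-fold, adjusted p 1.6e-05). Egr2, an immediate-early zinc finger factor, lay at 7.74, 8.50 and 8.93 in the high stretch arrays, against 7.24, 6.37, 7.13, 7.21 and 6.47 in the low stretch arrays. It also showed no overlap, with a change of 1.56 ± 0.18 (SE, 2.95-fold, adjusted p 1.14e-07). Ccl3, a chemokine of myeloid cells, was less clear-cut, with 8.16, 8.89 and 10.15 in the high stretch arrays, against 9.20, 7.13, 7.06, 7.35 and 6.82 in the low stretch arrays. Low stretch replicate 1 was higher than 6 of the 10 high stretch arrays, and the change was 1.52 ± 0.35 (SE, adjusted p 0.00387), or 1.95 (adjusted p 0.000173) without low stretch replicate 1. Ch25h, which makes 25-hydroxycholesterol, had 8.89, 9.24 and 10.18 in the high stretch arrays, against 8.98, 7.47, 7.86, 7.68 and 7.39 in the low stretch arrays. Here too low stretch replicate 1 overlapped the high stretch arrays, of which 7 lay above it, and the change was 1.51 ± 0.26 (SE, adjusted p 0.000159), or 1.79 (adjusted p 1.37e-05) without low stretch replicate 1.

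Nr4a1, an orphan nuclear receptor of the immediate-early class, rose by 1.50 ± 0.27 (SE, adjusted p 0.000277), with 9 of 10 high stretch arrays above every low stretch array. Plk2, a p53-responsive polo-like kinase, lay at 10.42, 10.80 and 11.27 in the high stretch arrays, against 9.48, 9.03, 9.37, 9.40 and 9.30 in the low stretch arrays. Its groups were well apart, and its change was 1.50 ± 0.12 (SE, 2.82-fold, adjusted p 2.87e-11). Has1, a hyaluronan synthase, rose by 1.44 ± 0.17 (SE, adjusted p 1.91e-07). Tnfaip6, whose product TSG-6 binds hyaluronan, rose by 1.41 ± 0.22 (SE, adjusted p 5.16e-05). Apold1, an endothelial early response gene, rose by 1.36 ± 0.18 (SE, adjusted p 2.78e-06), and the AP-1 subunit gene Fosb by 1.35 ± 0.28 (SE, adjusted p 0.00105). Rcan1, a feedback inhibitor of calcineurin, rose by 1.31 ± 0.15 (SE, adjusted p 1.32e-07). In 12 of these 15 genes the groups did not overlap, against 1.84% of all genes with every high stretch array the higher. The 15 were chosen by their change in the same arrays, so a larger share is built in. In 11 of 15 the low stretch mean already lay above the non-ventilated mean, which was not counted over all genes.

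The genes with the smallest p were not all among the largest rises. Cdr2, which encodes an antigen of paraneoplastic cerebellar degeneration, lay at 9.97, 10.10 and 10.19 in the high stretch arrays, against 9.21, 9.24, 9.13, 9.37 and 9.08 in the low stretch arrays. The high stretch arrays lay close together and all above the low stretch ones, with a change of 0.88 ± 0.05 (SE, adjusted p 1.7e-13). Dusp8, a phosphatase that switches off stress-activated MAP kinases, lay at 9.07, 9.17 and 9.30 in the high stretch arrays, against 8.25, 8.24, 7.96, 8.14 and 7.90 in the low stretch arrays. No array crossed over, and the change was 1.09 ± 0.07 (SE, adjusted p 5.95e-13). Ffar4, a receptor of long-chain fatty acids, rose by 1.16 ± 0.08 (SE, adjusted p 6.81e-12). Srf, which encodes serum response factor, the partner of actin-regulated coactivators, rose by 0.72 ± 0.05 (SE, adjusted p 6.81e-12).

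**Figure D2:**
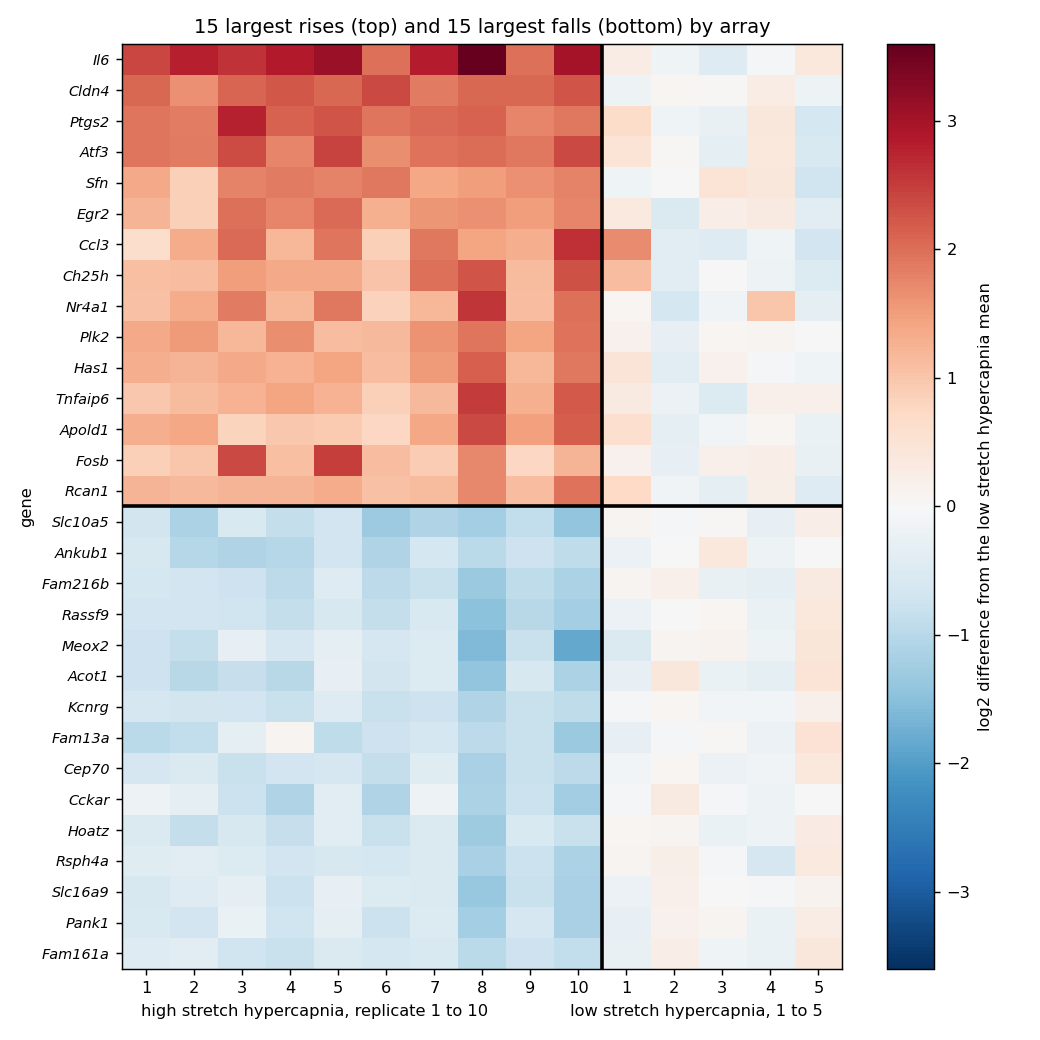
Difference of each of the 15 high against low stretch arrays from the low stretch hypercapnia mean (colour, log2) for the 15 largest rises (upper rows) and 15 largest falls (lower rows), with high stretch arrays on the left and low stretch arrays on the right. High stretch replicates 8 and 10 have the deepest colours, with means over the 15 rises of 2.11 and 2.09 and over the 15 falls of -1.22 and -1.15.

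The strength of the response varied among high stretch animals. Averaged over the 15 largest rises, arrays stood between 1.33 (replicate 6) and 2.11 (replicate 8) above the low stretch mean, and over the 15 largest falls between -0.50 (replicate 5) and -1.22 (replicate 8). These genes were chosen for their size in the same arrays, so the means are descriptions. Replicates 8 and 10 were the strongest in both directions. Without them 1499 genes were called, 913 higher and 586 lower. Without high stretch replicates 2, 8 and 10 and low stretch replicate 1, the 4 arrays furthest from their groups, 1503 were called, 873 higher and 630 lower.

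Immediate-early transcription factors rose as a group: 22 of 31 were higher and 0 lower, with a median change of 0.65 against -0.03 over all genes. The count was 20 without high stretch replicates 8 and 10. This list and those below were chosen with earlier results of these data known, so their shares are descriptions. Besides Atf3, Egr2, Nr4a1 and Fosb, Egr1, the founding EGR factor, had 8.60, 9.13 and 10.14 in the high stretch arrays, against 8.44, 7.85, 8.45, 7.94 and 7.48 in the low stretch arrays. No array of 1 group lay within the range of the other, and Egr1 changed by 1.27 ± 0.22 (SE, adjusted p 0.000181). Fosl1, an AP-1 subunit, lay at 7.61, 7.80 and 8.38 in the high stretch arrays, against 6.64, 6.63, 6.78, 6.95 and 6.20 in the low stretch arrays. Its groups were apart as well, and it changed by 1.23 ± 0.13 (SE, adjusted p 3.4e-08). Of the feedback inhibitors of the same pathway, MAP kinase phosphatases and Sprouty proteins, 9 of 17 rose and 1 fell, with a median of 0.28. The lower member, the phosphatase gene Dusp7, picked after its values were seen, was at -0.25 (adjusted p 0.0332) and was not called without high stretch replicate 2, 5, 8 or 10 or low stretch replicate 2, 3 or 5. Dusp8 was followed by Spry4, an inhibitor of receptor tyrosine kinase signalling, at 0.78 (adjusted p 0.00277). The phosphatases Dusp10, Dusp16 and Dusp5 rose by 0.74 (adjusted p 1.03e-07), 0.57 (adjusted p 0.000267) and 0.48 (adjusted p 0.000556), and Spry2 by 0.39 (adjusted p 0.00382).

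Targets of YAP and serum response factor, which read out cytoskeletal tension, were higher in 9 of 22 genes and lower in 0, with a median of 0.19. The list's mean signal (lowest, median and highest array) was 9.64, 9.78 and 9.93 at high stretch and 9.29, 9.52 and 9.58 at low stretch. In non-ventilated lungs it was 9.57, 9.74 and 9.78, nearer to high than to low stretch. Ccn1, a matricellular YAP target, lay at 11.05, 11.54 and 12.31 in the high stretch arrays, against 10.34, 10.64, 10.54, 9.72 and 10.56 in the low stretch arrays. The groups did not overlap, and the change was 1.24 ± 0.20 (SE, adjusted p 5.81e-05). Its relative Ccn2 rose by 0.75 (adjusted p 0.00564) and the muscle ankyrin repeat gene Ankrd1 by 0.83 (adjusted p 0.00691). In both genes the high stretch mean was close to that of non-ventilated lungs: Ccn2 averaged 11.28 ± 0.43 in high stretch hypercapnia, 10.53 ± 0.43 in low stretch hypercapnia and 11.25 ± 0.39 in non-ventilated lungs (SD, n = 10, 5 and 5). Vcl, the focal adhesion protein vinculin, had a small change with little spread, at 11.37, 11.51 and 11.60 in the high stretch arrays, against 10.82, 11.02, 10.97, 11.18 and 10.95 in the low stretch arrays. All high stretch arrays were the higher ones, by 0.51 ± 0.05 (SE, adjusted p 2.36e-08). Thbs1, which encodes thrombospondin 1, was at 0.90 (adjusted p 0.015) and lost its call without low stretch replicate 2 (adjusted p 0.0717) or 5 (adjusted p 0.124).

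EGF receptor ligands are shed from the membrane by the protease ADAM17, which stretch and ATP are known to activate in lung cells. Of the list of ligands and ADAM17 regulators 5 of 19 rose and 2 fell, with a median of 0.05. The ligand gene Hbegf lay at 10.30, 10.95 and 11.25 in the high stretch arrays, against 9.53, 9.80, 10.05, 10.10 and 9.30 in the low stretch arrays. The lowest high stretch array was above the highest low stretch one, and the change was 1.13 ± 0.19 (SE, adjusted p 0.000118). Ereg, the ligand epiregulin, rose by 0.75 (adjusted p 0.000134), P2ry2, a receptor of released ATP, by 0.72 (adjusted p 0.00229), and Rhbdf2, a partner that brings ADAM17 to the surface, by 0.45 (adjusted p 0.000891). Timp3, an inhibitor of ADAM17, was at 0.26 (adjusted p 0.0102), not called without low stretch replicate 2. Lrig1, an inhibitor of the receptors, fell by 0.27 on the log2 scale (adjusted p 0.000503). The other lower member, the receptor gene Erbb2, picked after its values were seen, was at -0.22 (adjusted p 0.0176). The list's count of lower genes was 1 without low stretch replicate 3 or 5. Adam17 itself lay at 9.82, 9.99 and 10.16 in the high stretch arrays, against 9.96, 10.09, 9.80, 10.04 and 9.98 in the low stretch arrays. The groups covered the same range, and the difference was 0.01 ± 0.06 (SE, adjusted p 0.95).

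Cytokine genes rose in part. Of the interleukins and related cytokines 5 of 26 were higher and 0 lower, with a median of 0.05. Il33, an alarmin of alveolar type 2 and other barrier cells, lay at 9.85, 10.62 and 10.92 in the high stretch arrays, against 9.96, 9.20, 9.82, 9.56 and 9.55 in the low stretch arrays. Only the lowest high stretch array fell within the low stretch range, and the change was 0.93 ± 0.15 (SE, adjusted p 5.81e-05). The high stretch mean of Il33, 10.54, was near the non-ventilated mean of 10.36. Lif, a cytokine of the interleukin-6 family, rose by 0.88 (adjusted p 1.05e-05) and the alarmin Il1a by 0.64 (adjusted p 0.00224). The 4-1BB ligand gene Tnfsf9 was at 0.58 (adjusted p 0.00815), with an adjusted p of 0.0572 without low stretch replicate 5. Among receptors and STAT3 feedback genes 2 of 25 rose and 1 fell, against 5.43% higher and 4.69% lower over all genes. Tnfrsf12a, the receptor of TWEAK, lay at 10.01, 10.47 and 10.69 in the high stretch arrays, against 9.22, 8.93, 9.38, 9.56 and 8.75 in the low stretch arrays. It showed no overlap and rose by 1.28 ± 0.14 (SE, adjusted p 4.07e-08), while Lifr, the receptor of LIF, fell by 0.52 on the log2 scale (adjusted p 0.000354). Socs3, the feedback inhibitor induced by STAT3, was at 0.64 (adjusted p 0.0322) and was not called without high stretch replicate 8 or 10 or low stretch replicate 2, 3 or 5, with an adjusted p of up to 0.151. Without low stretch replicate 1 the list had 5 higher genes.

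Chemokine genes were higher in 8 of 28 and lower in 0, with a median of 0.21 (5 without low stretch replicate 5). Besides Ccl3, the neutrophil attractant Cxcl1 lay at 7.46, 7.90 and 8.10 in the high stretch arrays, against 7.48, 6.89, 7.26, 7.08 and 6.84 in the low stretch arrays. All but 1 of the high stretch arrays lay above the low stretch ones, and the change was 0.73 ± 0.17 (SE, adjusted p 0.00447). Cxcl5, another neutrophil attractant made by epithelium, rose by 0.80 (adjusted p 0.0107). The monocyte attractants Ccl2, Ccl7 and Ccl12 were at 0.76 (adjusted p 0.0227), 0.62 (adjusted p 0.0126) and 0.80 (adjusted p 0.0237). Without low stretch replicate 5 these 3 were not called (adjusted p 0.0892, 0.0577 and 0.0857). Ccl2 and Ccl12 also lost their call without low stretch replicate 2, and Ccl12 without replicate 3.

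NF-kappaB subunits and feedback regulators were higher in 7 of 18 and lower in 1 (Traf1, not called without low stretch replicate 5), with a median of 0.28. The count depended on single low stretch arrays: it was 11 without replicate 1, 3 without replicate 2, 4 without replicate 3 and 2 without replicate 5. It also depended on the high stretch arrays, at 3 without high stretch replicates 8 and 10. The genes Tnfaip3, Tnip3 and Rel described below were then not called. Without the 4 arrays furthest from their groups the count was 8. Rela, the p65 subunit, was the firmest, with 9.92, 10.05 and 10.29 in the high stretch arrays, against 9.86, 9.60, 9.50, 9.59 and 9.46 in the low stretch arrays. The groups stood apart by little, and the change was 0.48 ± 0.06 (SE, adjusted p 2.97e-06). Nfkbiz, a nuclear coregulator, rose by 0.54 (adjusted p 0.00286), and low stretch replicate 1 was as high as the high stretch median. The change of Nfkbiz was 0.66 (adjusted p 0.000318) without low stretch replicate 1. Tnfaip3, the ubiquitin-editing inhibitor A20, was at 0.64 (adjusted p 0.0187) and was not called without low stretch replicate 2 or 5 (adjusted p 0.0739 and 0.0732). Tnip3, an A20-binding inhibitor with the second largest rise of the list, was at 0.60 (adjusted p 0.0249), not called without low stretch replicate 2, 3, 4 or 5, and was at 0.76 (adjusted p 0.00532) without low stretch replicate 1. The subunit gene Rel was at 0.34 (adjusted p 0.0196), not called without low stretch replicate 2 or 5. Of the endothelial adhesion and activation genes 4 of 15 rose and 1 fell. Sele, the selectin of activated endothelium, rose by 0.63 (adjusted p 0.00443), with low stretch replicate 1 among the high stretch arrays, and by 0.78 (adjusted p 0.000562) without low stretch replicate 1. Icam1, a leukocyte adhesion receptor, was at 0.26 (adjusted p 0.0262) and lost its call without high stretch replicate 10 or low stretch replicate 2, 3 or 4 (adjusted p up to 0.0876). Vcam1, another adhesion receptor, was at 0.30 (adjusted p 0.0306), not called without high stretch replicate 9 or 10 or low stretch replicate 2, 3 or 5. The list's count was 2 without high stretch replicate 10 or low stretch replicate 2. None of the 21 interferon response genes was called by limma in this comparison (1 at an unadjusted p under 0.05), and the 2 with the smallest p, Irf8 and Oasl2, were at 0.27 (adjusted p 0.181) and -0.23 (adjusted p 0.513). The spread between ventilated animals was wide. The list's mean signal (lowest, median and highest array) was 7.88, 8.17 and 9.96 at high stretch and 7.97, 8.15 and 9.20 at low stretch. In non-ventilated lungs it was 7.94, 8.16 and 8.21.

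Prostaglandin and leukotriene genes were led by Ptgs2, and 4 of 27 rose and 2 fell. The prostaglandin E2 receptor gene Ptger4 rose by 0.50 (adjusted p 0.00759), whereas Ptger2, which encodes another receptor of the same ligand, fell by 0.30 on the log2 scale (adjusted p 0.0102). Alox15, the 12/15-lipoxygenase, rose by 0.57 (adjusted p 0.00993). Ptges, a prostaglandin E synthase, was at 0.34 (adjusted p 0.0342), not called without high stretch replicate 5, 8 or 9 or low stretch replicate 1, 2, 4 or 5. Alox5, the 5-lipoxygenase that starts leukotriene synthesis, lay at 8.38, 8.54 and 8.84 in the high stretch arrays, against 8.75, 8.41, 8.20, 8.58 and 8.54 in the low stretch arrays. Its groups overlapped, and the difference was 0.08 ± 0.09 (SE, adjusted p 0.619). The second lower member, Hpgd, which degrades prostaglandins, was at -0.32 (adjusted p 0.0276) and was not called without high stretch replicate 10 or low stretch replicate 2, 3 or 5 (adjusted p up to 0.0939).

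Of the metalloproteinases, hyaluronan and provisional matrix genes 11 of 28 were higher and 0 lower, with a median of 0.14. Besides Has1 and Tnfaip6, Ptx3, the soluble pattern receptor pentraxin 3 that stabilises hyaluronan, had 6.80, 7.51 and 7.79 in the high stretch arrays, against 6.25, 6.19, 5.93, 6.83 and 5.90 in the low stretch arrays. Only the lowest high stretch array touched the low stretch range, and the change was 1.24 ± 0.15 (SE, adjusted p 4.55e-07). Adamts1, a protease of aggrecan and versican, lay at 11.32, 11.57 and 12.02 in the high stretch arrays, against 10.67, 10.35, 10.83, 11.23 and 10.63 in the low stretch arrays. The groups did not overlap, with a change of 0.82 ± 0.11 (SE, adjusted p 2.45e-06), and its relative Adamts4 rose by 1.04 (adjusted p 0.001). Adamts9, of the same family, was at 0.77 (adjusted p 0.0377), not called without high stretch replicate 4, 8 or 10 or low stretch replicate 2, 3 or 5. Coagulation and fibrinolysis genes were higher in 7 of 21 and lower in 1, and the higher count was 4 without low stretch replicate 5. F3, tissue factor, the trigger of coagulation, lay at 10.78, 11.05 and 11.28 in the high stretch arrays, against 9.83, 9.75, 10.23, 10.17 and 9.89 in the low stretch arrays. The arrays of the groups were apart by more than 0.5, and the change was 1.06 ± 0.11 (SE, adjusted p 2.07e-08). Plaur, the urokinase receptor, rose by 1.18 ± 0.16 (SE, adjusted p 2.09e-06) and Plau, urokinase, by 0.57 (adjusted p 0.000295). Plat, tissue plasminogen activator, was at 0.47 (adjusted p 0.0477), not called without high stretch replicate 4, 6, 8, 9 or 10 or low stretch replicate 1, 2, 3 or 5. Anxa2, a plasminogen receptor, was at 0.25 (adjusted p 0.0125), not called without low stretch replicate 5. The lower member was Thbd, thrombomodulin, an endothelial anticoagulant, at -0.21 (adjusted p 0.0352), which was not called without high stretch replicate 1, 4 or 10 or low stretch replicate 2, 3 or 5 (adjusted p up to 0.113).

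Genes of injured alveolar epithelium, such as simple keratins, rose as a group. The list was chosen with earlier results of these data known and includes Cldn4, among the largest rises. Of the list, 16 of 23 rose and 0 fell, with a median of 0.52, and 15 or 16 were called without any 1 array. The list's mean signal lay between 10.41 and 10.61 in the high stretch arrays and between 9.70 and 10.12 in the low stretch arrays. Krt8, a keratin of simple and transitional alveolar epithelium, lay at 12.13, 12.52 and 12.59 in the high stretch arrays, against 10.94, 11.09, 11.51, 11.62 and 10.75 in the low stretch arrays. Every high stretch array was higher by at least 0.5, and the change was 1.29 ± 0.11 (SE, 2.44-fold, adjusted p 3.42e-10). Its partner keratin gene Krt18 had 11.22, 11.52 and 11.76 in the high stretch arrays, against 10.06, 10.40, 10.46, 10.70 and 10.18 in the low stretch arrays. It was separated in the same way, with a change of 1.13 ± 0.12 (SE, 2.19-fold, adjusted p 2.82e-08). Krt19, another simple keratin, rose by 0.84 ± 0.11 (SE, adjusted p 1e-06).

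Junction genes moved in both directions, with 9 of 22 higher and 2 lower. Besides Cldn4, Gja1, the gap junction protein connexin 43, lay at 10.53, 10.68 and 11.07 in the high stretch arrays, against 10.15, 9.63, 9.93, 10.09 and 9.58 in the low stretch arrays. There was no overlap, and the change was 0.87 ± 0.10 (SE, adjusted p 2.61e-07). Cldn23 rose by 0.67 (adjusted p 5.8e-06) and Cldn7 by 0.45 (adjusted p 0.000734), both claudins of epithelia. Cldn10 was at -0.40 (adjusted p 0.0241) and lost its call without low stretch replicate 2 or 5 (adjusted p 0.0715 and 0.0859). The other lower member, the tight junction gene Tjp3, picked after its values were seen, was at -0.36 (adjusted p 0.000339). The lower count was 4 without high stretch replicate 1, and 1 without low stretch replicate 2 or 5.

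**Figure D3:**
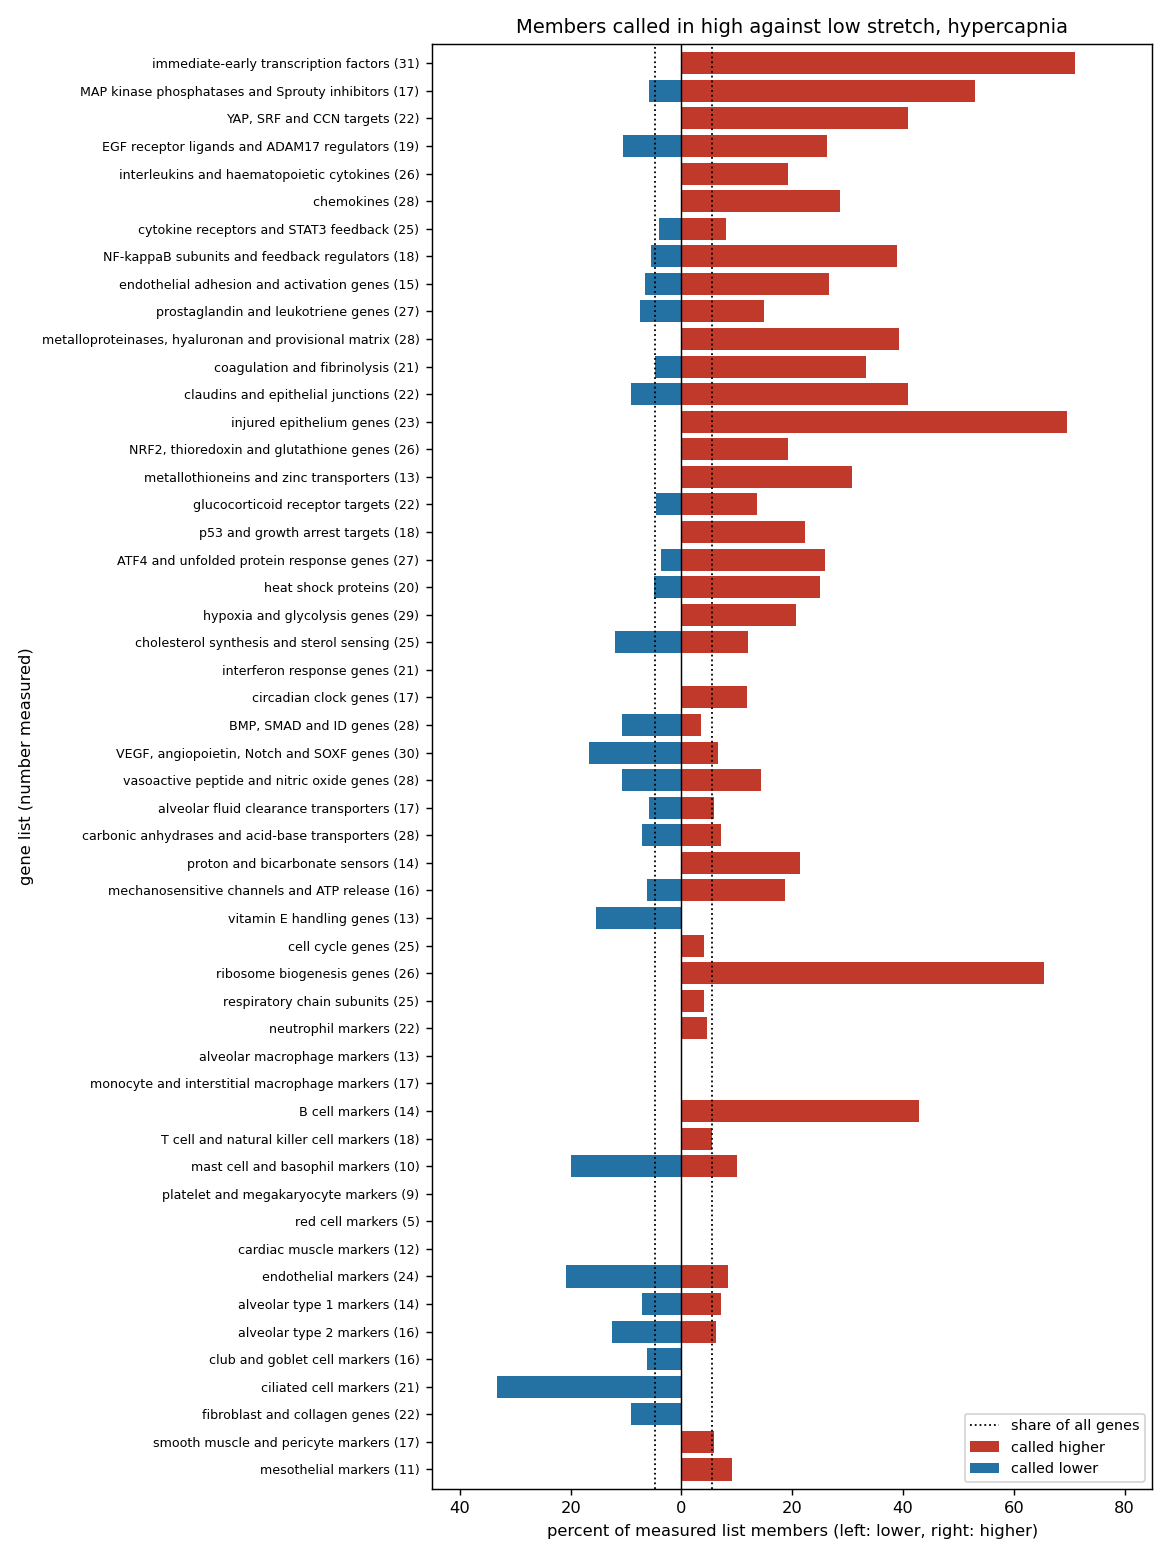
Percent of the measured members of each of the 52 gene lists called higher (red, to the right) or lower (blue, to the left) in high against low stretch hypercapnia, with the number measured in brackets. Dotted lines mark the shares of all genes called higher (5.43%) and lower (4.69%). Immediate-early factors, injured epithelium genes and ribosome biogenesis genes have the longest bars to the right and ciliated cell markers the longest to the left.

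Stress pathways contributed smaller counts. Antioxidant genes of the NRF2, thioredoxin and glutathione list were higher in 5 of 26 and lower in 0. Slc7a11, the cystine transporter that feeds glutathione synthesis, had 10.11, 10.89 and 11.12 in the high stretch arrays, against 10.37, 9.16, 9.14, 9.92 and 8.61 in the low stretch arrays. In 3 high stretch arrays it fell within the low stretch range, and the change was 1.29 ± 0.27 (SE, adjusted p 0.00137). Srxn1, sulfiredoxin, rose by 0.93 ± 0.16 (SE, adjusted p 0.000173) and Gclc, the rate-limiting enzyme of glutathione synthesis, by 0.50 (adjusted p 0.000325). Gpx2, a glutathione peroxidase, and Txnrd1, thioredoxin reductase, rose by 0.43 (adjusted p 0.00343) and 0.41 (adjusted p 0.00519). Slc7a11, Srxn1 and Gclc were already far above the non-ventilated level at low stretch: Slc7a11 averaged 10.73 ± 0.38 in high stretch hypercapnia, 9.44 ± 0.70 in low stretch hypercapnia and 6.62 ± 0.27 in non-ventilated lungs (SD, n = 10, 5 and 5). Metallothionein and zinc transporter genes were higher in 4 of 13 and lower in 0, or higher in 2 without low stretch replicate 2. Mt2 and Mt1, which encode zinc-binding proteins, rose by 0.68 (adjusted p 0.00524) and 0.59 (adjusted p 0.00317). The zinc transporter genes Slc39a14 and Slc30a4 were at 0.52 (adjusted p 0.0306), not called without high stretch replicate 8, 9 or 10 or low stretch replicate 2, 3 or 5, and at 0.19 (adjusted p 0.0153), not called without low stretch replicate 2. Glucocorticoid receptor targets were higher in 3 of 22 and lower in 1, and 6 were higher without low stretch replicate 1. Mt1 and Mt2 were among those 3. The third, the MAP kinase phosphatase gene Dusp1, was at 0.33 (adjusted p 0.0404), not called without high stretch replicate 8, 9 or 10 or low stretch replicate 2, 3 or 5. Klf15, a glucocorticoid-induced metabolic factor, fell by 0.46 on the log2 scale (adjusted p 0.00657).

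Growth arrest, amino acid response and heat shock genes also held several risers. Of the p53 and growth arrest targets 4 of 18 rose and 0 fell, 2 rose without low stretch replicate 2 or 3, and 1 fell without replicate 1. Plk2 led them, and its relative Plk3 rose by 0.93 ± 0.11 (SE, adjusted p 2.46e-07). Gadd45a, a growth arrest gene, was at 0.46 (adjusted p 0.017), not called without low stretch replicate 2, 3 or 5. Mdm2, the ubiquitin ligase of p53, was at 0.14 (adjusted p 0.0415), not called without high stretch replicate 1, 4, 7, 8, 9 or 10 or low stretch replicate 2, 3 or 4. Of the ATF4 and unfolded protein response genes 7 of 27 rose and 1 fell. Mthfd2, a mitochondrial folate enzyme with the largest rise of the list, was at 0.58 (adjusted p 0.0182), not called without low stretch replicate 1, 3 or 5. Atf4, the amino acid response factor itself, rose by 0.34 (adjusted p 0.00145), its target Psat1 of serine synthesis by 0.54 (adjusted p 0.00166), and Asns, asparagine synthetase, by 0.36 (adjusted p 0.00963). Ppp1r15a, a phosphatase subunit of the stress response, and Manf, a secreted factor of the endoplasmic reticulum, rose by 0.36 (adjusted p 0.00903) and 0.29 (adjusted p 0.0136). Of the heat shock proteins 5 of 20 rose and 1 fell, the small heat shock protein gene Hspb8 by 0.36 (adjusted p 0.0011), the DNAJ cochaperone gene Dnajb4 by 0.40 (adjusted p 0.00136) and the chaperone partner Bag3 by 0.26 (adjusted p 0.000778). The chaperone genes Hspa9 and Hspa4 rose by 0.34 (adjusted p 0.00075) and 0.18 (adjusted p 0.00953). The lower one, Dnaja4, was at -0.23 (adjusted p 0.018) and was not called without low stretch replicate 3 or 5. The lower member of the ATF4 list, Herpud1, picked after its values were seen, was at -0.27 (adjusted p 0.0235) and was not called without low stretch replicate 2, 3 or 5, and 2 members fell without replicate 1.

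Of the circadian clock genes 2 of 17 rose and 0 fell. Bhlhe40, a repressor that also answers to hypoxia and cytokines, rose by 0.97 ± 0.14 (SE, adjusted p 8.74e-06) with no overlap. Nfil3, a transcriptional repressor, was at 0.58 (adjusted p 0.0368) and was not called without high stretch replicate 8, 9 or 10 or low stretch replicate 2, 3 or 5.

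Hypoxia and glycolysis genes were higher in 6 of 29 and lower in 0. Without low stretch replicate 2 or 5 the higher count was 3, and the lower count was 2 without high stretch replicate 1 and 1 without high stretch replicate 6 or low stretch replicate 4. Adm, the vasodilator adrenomedullin, rose by 0.74 (adjusted p 0.0135) and Hk2, the inducible hexokinase, by 0.45 ± 0.07 (SE, adjusted p 6.54e-05). Ndrg1, a hypoxia-induced gene with a larger change than Hk2, was at 0.56 (adjusted p 0.0141), not called without low stretch replicate 2. Pfkfb3, a regulator of glycolysis, was at 0.43 (adjusted p 0.0241), not called without low stretch replicate 2, 4 or 5. Slc2a1, a glucose transporter, was at 0.41 (adjusted p 0.0357), not called without high stretch replicate 4, 8, 9 or 10 or low stretch replicate 2, 3 or 5. Pgk1, a glycolytic enzyme, was at 0.20 (adjusted p 0.007), not called without low stretch replicate 5. Cholesterol synthesis and sterol sensing genes split, with 3 of 25 higher and 3 lower. Pmvk, phosphomevalonate kinase, changed by 0.78 ± 0.16 (SE, adjusted p 0.00145), with only 4 high stretch arrays above every low stretch array. Hsd17b7, a later enzyme of the pathway, rose by 0.48 (adjusted p 0.00202), and Ch25h was the third riser. The lower members Insig1, a sterol sensor, and Mvd, the decarboxylase after Pmvk, were at -0.33 (adjusted p 0.0139) and -0.23 (adjusted p 0.0245). Insig1 was not called without low stretch replicate 2 or 5, and Mvd not called without low stretch replicate 3 or 5. Stard4, a sterol transfer protein, was at -0.23 (adjusted p 0.0278), not called without high stretch replicate 10 or low stretch replicate 3, 4 or 5. No member was called lower without low stretch replicate 5, and 1 without replicate 3.

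Ribosome biogenesis genes rose by small amounts in large number. In 17 of 26 the signal was higher and in 0 lower, with a median of 0.26, and the count lay between 12 and 21 without any 1 array. Nop58, a core protein of snoRNA particles, lay at 9.18, 9.40 and 9.98 in the high stretch arrays, against 9.01, 8.51, 8.88, 9.03 and 8.46 in the low stretch arrays. All high stretch arrays lay above all low stretch ones by a narrow margin, and the change was 0.71 ± 0.13 (SE, adjusted p 0.000222). Gnl3, nucleostemin, rose by 0.67 (adjusted p 0.000215), Rrp12, a ribosome export factor, by 0.55 (adjusted p 3.83e-05), and Nolc1, a nucleolar phosphoprotein, by 0.43 (adjusted p 3.83e-05). Ltv1, a small subunit assembly factor, and Utp4, a processome protein, rose by 0.47 (adjusted p 0.000177) and 0.35 (adjusted p 0.00512). Among the cell cycle genes 1 of 25 was higher, or 2 without high stretch replicate 1 and 0 without low stretch replicate 1 or 2. Among the respiratory chain genes 1 of 25 was higher, and no member of either list was lower. Of all genes 5.43% were higher and 4.69% lower. The members called were Pcna, the DNA polymerase clamp, at 0.21 (adjusted p 0.0269), and Cycs, cytochrome c, at 0.34 (adjusted p 0.0318). Pcna was not called without low stretch replicate 1, 2, 3 or 5, and Cycs not without high stretch replicate 4 or 10 or low stretch replicate 1, 2 or 3.

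Genes of microRNAs were examined after their values had been seen. The array measures their precursor or host transcripts, not the mature microRNA. Of 300 measured, 11 were called higher and 7 lower, both smaller shares than over all genes, and the median change was -0.04. The 11 included neighbours in 2 clusters. On chromosome 14 the host gene Mir17hg lay at 6.45, 6.68 and 7.10 in the high stretch arrays, against 6.33, 6.23, 6.30, 6.33 and 6.25 in the low stretch arrays. No array overlapped, and the change was 0.43 ± 0.10 (SE, adjusted p 0.00341). Within it Mir17, Mir18, Mir19a, Mir20a and Mir19b-1 were at 0.36, 0.46, 0.59, 0.48 and 0.50, all called. On chromosome 8 Mir23a, Mir27a and Mir24-2 were at 0.54 ± 0.07 (SE, adjusted p 2.42e-06), 0.59 ± 0.07 (SE, adjusted p 2.46e-07) and 0.29 ± 0.09 (SE, adjusted p 0.0392). Probe sets of 1 cluster read 1 primary transcript and are not independent. The mature sequences from RefSeq (GRCm38.p6) are shown with the seed, bases 2 to 8, in capitals, because the seed sets the target range of a microRNA and the clusters carry several families.
miR-17-5p: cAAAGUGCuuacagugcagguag
miR-20a-5p: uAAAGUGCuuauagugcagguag
miR-18a-5p: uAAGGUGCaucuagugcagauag
miR-19a-3p: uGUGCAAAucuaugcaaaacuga
miR-19b-3p: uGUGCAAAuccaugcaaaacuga
miR-23a-3p: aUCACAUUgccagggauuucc
miR-27a-3p: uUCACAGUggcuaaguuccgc
miR-24-3p: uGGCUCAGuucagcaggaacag
miR-17-5p and miR-20a-5p share 1 seed and miR-19a-3p and miR-19b-3p another, while the seeds of the others differ. The largest fall among called microRNA genes was that of Mir224, at -0.67 ± 0.11 (SE, adjusted p 7.47e-05).

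No fall reached 1 log2 unit. Slc10a5, a member of the bile acid transporter family, lay at 5.38, 5.81 and 6.24 in the high stretch arrays, against 6.89, 6.72, 6.84, 6.50 and 7.03 in the low stretch arrays. All high stretch arrays were the lower ones, and the change was -0.98 ± 0.12 (SE, adjusted p 2.98e-07). Ankub1 had 4.73, 4.86 and 5.24 in the high stretch arrays, against 5.60, 5.80, 6.19, 5.63 and 5.80 in the low stretch arrays. Its groups were separate as well, with a change of -0.87 ± 0.10 (SE, adjusted p 1.2e-07). Fam216b, which the list of ciliated cell markers held, lay at 7.13, 7.60 and 8.00 in the high stretch arrays, against 8.56, 8.65, 8.19, 8.13 and 8.79 in the low stretch arrays. The highest high stretch array was below the lowest low stretch one, and the change was -0.86 ± 0.12 (SE, adjusted p 5.01e-06). Rassf9, a Ras association domain gene, fell by 0.86, the vascular homeobox gene Meox2 by 0.81 and the acyl-CoA thioesterase gene Acot1 by 0.81 on the log2 scale. The remaining 9, among them Fam13a, the centrosomal gene Cep70, the cholecystokinin receptor gene Cckar, the cilia gene Hoatz, the monocarboxylate transporter gene Slc16a9 and the pantothenate kinase gene Pank1, changed by -0.76 (Kcnrg) to -0.67 (Fam161a). In 9 of the 15 the groups did not overlap, against 0.908% of all genes with every high stretch array the lower. The 15 were chosen by their change in the same arrays, so a larger share is built in. In 14 of 15 the low stretch mean lay below the non-ventilated mean, which was not counted over all genes.

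The 5 falls with the smallest p were, besides Slc10a5 and Ankub1, those of Myb, Kit and Klhl24. Myb, a transcription factor of haematopoietic and ciliating airway cells, lay at 7.10, 7.31 and 7.45 in the high stretch arrays, against 7.69, 7.92, 8.24, 7.77 and 7.95 in the low stretch arrays. No high stretch array reached the low stretch range, and the change was -0.63 ± 0.07 (SE, adjusted p 3.56e-08). Kit, the receptor of stem cell factor, carried by mast cells and by some lung capillary endothelium, had 9.97, 10.33 and 10.61 in the high stretch arrays, against 10.83, 10.89, 10.99, 11.02 and 10.90 in the low stretch arrays. Its groups did not overlap either, with a change of -0.62 ± 0.07 (SE, adjusted p 1.07e-07). Klhl24, an adaptor of a ubiquitin ligase, fell by 0.56 on the log2 scale (adjusted p 2.82e-07).

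Ciliated cell markers fell in 7 of 21 genes and rose in 0, with a median of -0.20, and 6 to 8 were called without any 1 array. The list's mean signal lay between 7.59 and 7.95 in the high stretch arrays and between 7.87 and 8.17 in the low stretch arrays. Foxj1, the master transcription factor of motile cilia, lay at 7.48, 7.65 and 7.84 in the high stretch arrays, against 8.06, 8.03, 8.19, 7.99 and 8.02 in the low stretch arrays. High stretch arrays were all the lower ones, and the change was -0.41 ± 0.06 (SE, adjusted p 8.8e-06). Rsph4a, a radial spoke protein, fell by 0.68, Sntn, a protein of the ciliary tip, by 0.58, Ccdc40, an axoneme assembly gene, by 0.32, and Tekt4, a tektin of axonemes, by 0.49 on the log2 scale (adjusted p 0.000811, 0.000509, 0.00241 and 0.00152). In whole-lung RNA fewer cells of a type and less RNA per cell cannot be told apart. Of the club and goblet cell markers 1 of 16 fell, against 4.69% of all genes. It was Gabrp at -0.30 (adjusted p 0.0244), which was not called without low stretch replicate 2 or 5, and 2 fell without low stretch replicate 4. Of the 16 alveolar type 2 markers 1 rose (Il33) and 2 fell, the phosphate transporter Slc34a2 by 0.27 and Etv5 by 0.43. Of the 14 type 1 markers Gprc5a rose by 0.24 and Rtkn2 fell by 0.42, all on the log2 scale. Over all genes 5.43% were called higher and 4.69% lower, and the type 1 counts were near these shares. Without high stretch replicate 8, 2 type 1 markers rose.

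**Figure D4:**
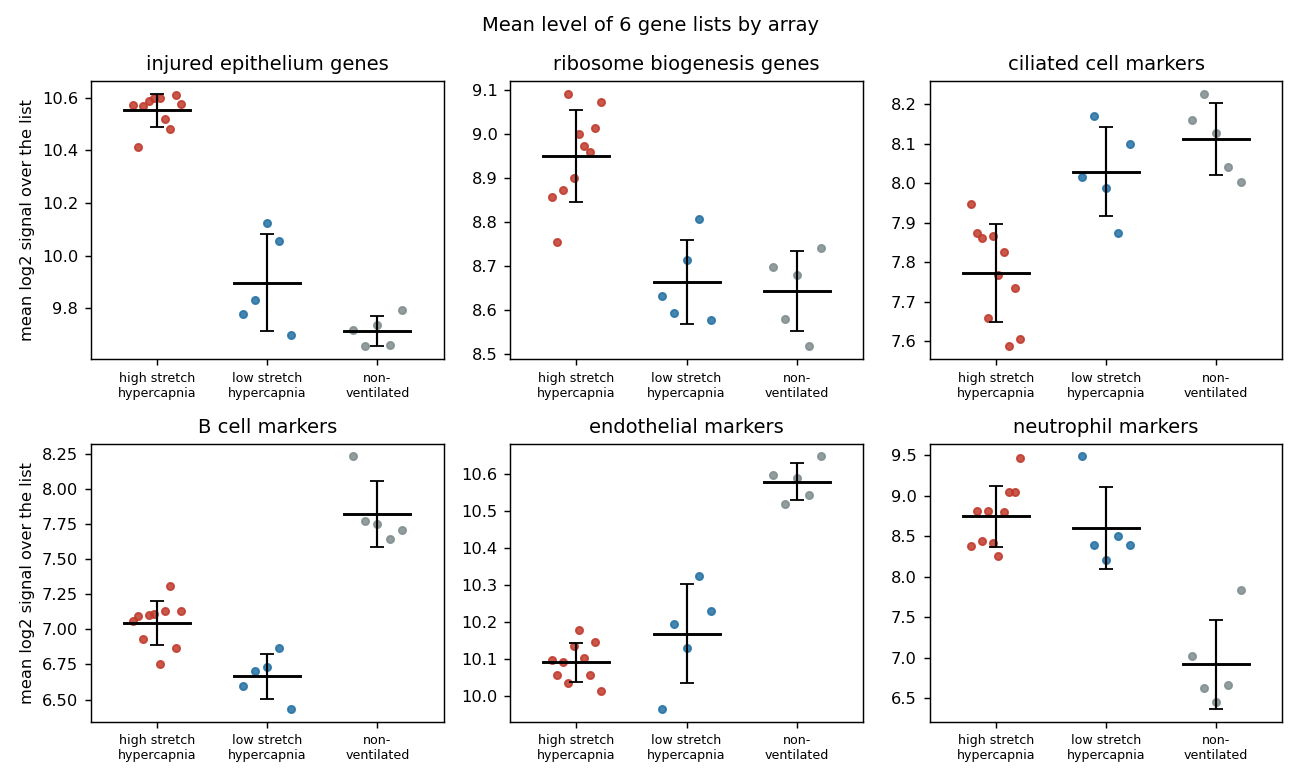
Mean log2 signal over 6 gene lists (vertical axis, not starting at 0) in each array of high stretch hypercapnia (red), low stretch hypercapnia (blue) and non-ventilated lungs (grey), with bars for means and SD. Injured epithelium genes separate the red from the blue points completely, while in neutrophil markers the 2 ventilated groups overlap and low stretch replicate 1 is the highest blue point.

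Endothelial cells make up a large part of the lung, and some of their regulators fell. Endothelial markers were lower in 5 of 24 and higher in 2, with a median of -0.05. The higher count was 1 without high stretch replicate 1, 6, 7, 8, 9 or 10 or low stretch replicate 1, 2, 3 or 5, since the tight junction gene Cldn5, at 0.39 (adjusted p 0.0473), then lost its call. The lower count was 2 without low stretch replicate 2 or 3, and 3 without replicate 5 or without high stretch replicates 8 and 10. Tmem100, a BMP-dependent endothelial gene, lay at 10.59, 11.19 and 11.47 in the high stretch arrays, against 11.11, 11.66, 11.72, 12.17 and 11.88 in the low stretch arrays. The ranges overlapped, with 4 high stretch arrays below every low stretch one, and the change was -0.55 ± 0.13 (SE, adjusted p 0.00519). Sox18, a SOXF factor of endothelium, changed by -0.55 ± 0.14 (SE, adjusted p 0.00695). In both genes low stretch replicate 1 was the lowest array of its group, and the changes were -0.70 (adjusted p 0.00033) without low stretch replicate 1 for Tmem100 and -0.67 (adjusted p 0.00123) without low stretch replicate 1 for Sox18. Robo4, a guidance receptor of endothelium, rose by 0.30 (adjusted p 0.00299). Egfl7, a secreted endothelial factor, was at -0.34 (adjusted p 0.0459), not called without high stretch replicate 1, 2, 4, 5, 7 or 10 or low stretch replicate 2, 3, 4 or 5. Tek, the angiopoietin receptor, was at -0.24 (adjusted p 0.0245), not called without low stretch replicate 2, 3 or 5. Of the VEGF, angiopoietin, Notch and SOXF genes 2 of 30 rose and 5 fell, against 5.43% higher and 4.69% lower over all genes. Without high stretch replicate 6, 8 or 10 or low stretch replicate 1, 2 or 5 the higher count was 1. Jag1, a Notch ligand, lay at 8.86, 9.02 and 9.28 in the high stretch arrays, against 9.44, 9.44, 9.64, 9.38 and 9.59 in the low stretch arrays. Its groups stood apart, and the change was -0.46 ± 0.06 (SE, adjusted p 6.09e-06), while the Notch target Hes1 rose by 0.36 (adjusted p 0.00202) and the Notch target Hey1 fell by 0.64 on the log2 scale (adjusted p 0.0118). The connexin gene Gja4 was at -0.47 (adjusted p 0.00519), and the SOXF factor gene Sox7 at 0.33 (adjusted p 0.0301), not called without high stretch replicate 6, 8 or 10 or low stretch replicate 1, 2 or 5. BMP, SMAD and ID genes were higher in 1 of 28 and lower in 3, against 5.43% higher and 4.69% lower over all genes. The lower count was 1 without high stretch replicate 10 or low stretch replicate 2 or 5, and the higher count 2 without high stretch replicate 8 or 10 or low stretch replicate 1, 2 or 4. The inhibitory SMAD gene Smad6 was at -0.60 (adjusted p 0.0111), or -0.81 (adjusted p 0.000292) without low stretch replicate 1, and Inhba, a subunit of activin, rose by 0.52 ± 0.08 (SE, adjusted p 2.48e-05). Smad9, a BMP-activated SMAD, was at -0.34 (adjusted p 0.0342), not called without high stretch replicate 9 or 10 or low stretch replicate 2 or 5. Acvrl1, the receptor ALK1, was at -0.24 (adjusted p 0.0371), not called without high stretch replicate 2, 4, 8 or 10 or low stretch replicate 2, 4 or 5.

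Vasoactive genes were higher in 4 of 28 and lower in 3, or 7 without low stretch replicate 1. Of all genes 5.43% were called higher and 4.69% lower. The bradykinin receptor genes Bdkrb1 and Bdkrb2 rose by 0.75 ± 0.12 (SE, adjusted p 6.45e-05) and 0.61 ± 0.11 (SE, adjusted p 0.000275), with no overlap between the groups in either. Edn1, which encodes the vasoconstrictor endothelin 1, lay at 8.04, 8.22 and 8.51 in the high stretch arrays, against 8.14, 8.78, 8.66, 9.14 and 9.04 in the low stretch arrays. Low stretch replicate 1 lay among the high stretch arrays, and the change was -0.50 ± 0.12 (SE, adjusted p 0.00519), or -0.65 (adjusted p 0.000136) without low stretch replicate 1. Ramp2, a subunit of the adrenomedullin receptor, was at -0.42 (adjusted p 0.0085). Gch1, which makes the nitric oxide synthase cofactor tetrahydrobiopterin, was at 0.67 (adjusted p 0.0228), not called without low stretch replicate 2, 3 or 5.

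Genes that handle acid, CO2 and fluid are set beside the shares of all genes called, 5.43% higher and 4.69% lower. The counts of the acid-base and fluid clearance lists were near these shares. Of the carbonic anhydrases and acid-base transporters 2 of 28 rose and 2 fell. The higher count was 1 without low stretch replicate 3 or 5, and the lower count 0 without high stretch replicate 10 or low stretch replicate 2 and 1 without high stretch replicate 3, 4, 5, 6, 8 or 9 or low stretch replicate 1, 3 or 5. Car13, a cytosolic carbonic anhydrase, was at 0.43 (adjusted p 0.0131) and not called without low stretch replicate 5 (adjusted p 0.064). The sodium-proton exchanger genes Slc9a3 and Slc9a8 were at -0.28 (adjusted p 0.0287), not called without high stretch replicate 10 or low stretch replicate 1, 2 or 3, and at 0.18 (adjusted p 0.015), not called without low stretch replicate 3. The bicarbonate transporter gene Slc4a5 was at -0.23 (adjusted p 0.0485), not called without high stretch replicate 3, 4, 5, 6, 8, 9 or 10 or low stretch replicate 2 or 5. Of the proton and bicarbonate sensors 3 of 14 rose and 0 fell. Gpr4, an acid-sensing receptor of endothelium, lay at 7.14, 7.30 and 7.41 in the high stretch arrays, against 7.14, 6.87, 6.92, 6.78 and 6.84 in the low stretch arrays. Low stretch replicate 1 was level with the lowest high stretch array, and the change was 0.38 ± 0.07 (SE, adjusted p 0.000188), or 0.44 (adjusted p 4.73e-05) without low stretch replicate 1. The potassium channel gene Kcnk1 rose by 0.30 (adjusted p 0.00885). Its relative Kcnk5 was at 0.37 (adjusted p 0.00845), not called without low stretch replicate 5. Among alveolar fluid clearance transporters 1 of 17 rose and 1 fell, the potassium channel gene Kcnq1 at -0.18 (adjusted p 0.0386), which lost its call without high stretch replicate 3, 4, 5, 8 or 10 or low stretch replicate 2, 4 or 5, while 2 fell without high stretch replicate 7. The riser, Cftr, the chloride channel mutated in cystic fibrosis, lay at 7.67, 8.19 and 8.38 in the high stretch arrays, against 7.25, 7.50, 7.13, 7.55 and 7.32 in the low stretch arrays. The groups did not overlap, and the change was 0.78 ± 0.11 (SE, adjusted p 9.18e-06). Of the mechanosensitive channel and ATP release genes 3 of 16 rose and 1 fell, namely P2ry2 and, at 0.53 (adjusted p 0.0102) and 0.28 (adjusted p 0.0352), Nt5e, which makes adenosine, and the UDP receptor gene P2ry6, against P2ry1, an ADP receptor gene, at -0.32 (adjusted p 0.00963), and 2 fell without low stretch replicate 1. Nt5e was not called without low stretch replicate 1, and P2ry6 not without high stretch replicate 4, 8, 9 or 10 or low stretch replicate 2, 3, 4 or 5. Vitamin E handling genes rose in 0 of 13 and fell in 2, Sec14l2, a tocopherol-associated protein, at -0.29 (adjusted p 0.00605), and the cholesterol exporter Npc1, at -0.20 (adjusted p 0.0333), which was not called without high stretch replicate 4 or 10 or low stretch replicate 2, 4 or 5. Ttpa, the alpha-tocopherol transfer protein, lay at 6.39, 6.82 and 7.27 in the high stretch arrays, against 7.13, 7.08, 7.14, 7.46 and 7.34 in the low stretch arrays. In 6 high stretch arrays it lay below every low stretch one, and the difference of -0.35 ± 0.14 (SE, adjusted p 0.0966) did not pass.

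Markers of neutrophils, macrophages, monocytes, platelets, red cells and cardiac muscle were called in no larger shares than all genes. Over all genes 5.43% were called higher and 4.69% lower. Of the neutrophil markers 1 of 22 rose and 0 fell, with a median of 0.16. The list's mean signal lay between 8.26 and 9.47 in the high stretch arrays and between 8.21 and 9.49 in the low stretch arrays. The riser was Stfa3, a stefin, at 0.42 (adjusted p 0.0062), and without low stretch replicate 1 a second marker was called. None of the 13 alveolar macrophage, 17 monocyte and interstitial macrophage, 9 platelet, 5 red cell or 12 cardiac muscle markers was called by limma. At an unadjusted p under 0.05 there were 3, 3, 2, 0 and 0 in these lists. The scavenger receptor gene Marco had the smallest p of the macrophage markers, at 0.31 (adjusted p 0.0851), and Ace of the monocyte list, at -0.18 (adjusted p 0.0705), which was at -0.21 (adjusted p 0.0455) without low stretch replicate 1 and was then called. The next were Pparg at 0.21 (adjusted p 0.142) and Treml4 at 0.46 (adjusted p 0.139). In the platelet list Gp5 and Pf4 stood at 0.27 (adjusted p 0.0787) and 0.34 (adjusted p 0.0882), in the red cell list Slc4a1 and Epb42 at 0.24 (adjusted p 0.575) and 0.11 (adjusted p 0.695), and in the cardiac muscle list Myh7 and Pln at -0.13 (adjusted p 0.303) and 0.28 (adjusted p 0.313). Without single arrays these counts could reach 1: alveolar macrophages without low stretch replicate 5, monocytes without high stretch replicate 6 or 7 or low stretch replicate 1, and platelets without high stretch replicate 10 or low stretch replicate 4. The part of cell content in the other results was not tested.

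B cell markers rose in 6 of 14 and fell in 0, with a median of 0.35. Ms4a1, the CD20 antigen, lay at 6.57, 7.05 and 7.34 in the high stretch arrays, against 6.27, 6.39, 6.69, 6.80 and 6.20 in the low stretch arrays. In 2 high stretch arrays it fell within the low stretch range, and the change was 0.54 ± 0.14 (SE, adjusted p 0.00753). Bank1, a B cell scaffold, rose by 0.62 (adjusted p 0.00668) and Cxcr5, the follicle homing receptor, by 0.58 (adjusted p 0.00152). The antigen receptor chain genes Cd79a and Cd79b were at 0.52 (adjusted p 0.028), not called without high stretch replicate 8 or low stretch replicate 2, 3 or 5, and at 0.39 (adjusted p 0.016), not called without low stretch replicate 1 or 5. The kinase gene Blk was at 0.36 (adjusted p 0.0122), not called without low stretch replicate 5. Against non-ventilated lungs Ms4a1 was lower in both: it averaged 7.01 ± 0.26 in high stretch hypercapnia, 6.47 ± 0.26 in low stretch hypercapnia and 8.32 ± 0.28 in non-ventilated lungs (SD, n = 10, 5 and 5). The count depended on the arrays and the scaling, at 10 without high stretch replicate 6, 3 without low stretch replicate 5, 2 without the 4 arrays that stood apart and 11 with arrays centred on their median. Of the T and natural killer cell markers 1 of 18 rose, Cd2 at 0.36 (adjusted p 0.0188), not called without low stretch replicate 1 or 3, and 2 rose without low stretch replicate 4. Of the mesothelial markers 1 of 11, Krt19, rose, and 1 fell without high stretch replicate 1 or 5. Of the fibroblast and collagen genes 2 of 22 fell, Frem1, a basement membrane protein gene, at -0.47 (adjusted p 0.00387) and the growth factor gene Fgf10 at -0.36 (adjusted p 0.00737), not called without low stretch replicate 5. Of the smooth muscle and pericyte markers 1 of 17 rose, Tagln at 0.22 (adjusted p 0.0431), not called without high stretch replicate 1, 5, 6, 8, 9 or 10 or low stretch replicate 1, 2 or 5. The shares of all genes were 5.43% higher and 4.69% lower. Of the 10 mast cell and basophil markers Mcpt8, a basophil protease, rose by 0.49 (adjusted p 0.00272) and Kit and Gata2 fell, Gata2 by 0.57 on the log2 scale (adjusted p 0.00368).

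The same settings were compared without CO2 in other animals, which share no array with the hypercapnia groups. High against low stretch in normocapnia changed 3646 genes (18.3%), 1739 higher (8.72%) and 1907 lower (9.56%). Of the 2017 genes called in hypercapnia, 1571 were called in the same direction in normocapnia (77.9% of the hypercapnia calls and 43.1% of the normocapnia calls), and 0 in the opposite direction. Across genes the 2 sets of changes had a Pearson r of 0.776 and a Spearman rank correlation of 0.607 (19938 genes, which are not independent). The difference between the 2 stretch changes was itself called for 0 genes by limma, with 893 genes at an unadjusted p under 0.05 (4.48%), where 996.9 would be given by an even spread of p. Other settings gave counts on both sides of that number, with 623 without low stretch replicate 3 and 674 without low stretch replicate 1, but 1263 without low stretch replicate 5, 1386 with array weights and 1481 without high stretch replicates 8 and 10. A typical gene's difference had a standard error of 0.114, so small differences were not detectable after adjustment for 19938 tests.

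Among the 39 genes that rose by at least 1 log2 unit in hypercapnia, 31 had the larger rise in normocapnia, and their median changes were 1.28 in hypercapnia and 1.50 in normocapnia. These genes were chosen by their hypercapnia values, and no gene's difference was called. Il6 rose by 2.72 in hypercapnia and 3.29 in normocapnia, a difference of -0.58 ± 0.34 (SE, unadjusted p 0.102). For Egr2 the rises were 1.56 in hypercapnia and 2.29 in normocapnia, a difference of -0.72 ± 0.25 (SE, unadjusted p 0.0063). Ptgs2 and Atf3 differed by -0.08 ± 0.32 (SE, unadjusted p 0.808) and -0.06 ± 0.34 (SE, unadjusted p 0.852). Plk2, Apold1 and Rcan1 were the 3 of the 15 largest rises whose change was not larger in normocapnia. For Ttpa the change was -0.35 in hypercapnia and -0.75 in normocapnia, a difference of 0.40 ± 0.19 (SE, unadjusted p 0.0419).

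The genes with the smallest p for the difference included Krtap17-1, a keratin-associated protein gene, with values of 0.35 in hypercapnia and 1.02 in normocapnia and a difference of -0.67 ± 0.15 (SE, unadjusted p 5.96e-05). Gdnf, glial cell line-derived neurotrophic factor, stood at 0.32 in hypercapnia and 0.79 in normocapnia, a difference of -0.47 ± 0.12 (SE, unadjusted p 0.000327). Ubl7, a ubiquitin-like protein gene, stood at -0.06 in hypercapnia and -0.32 in normocapnia, a difference of 0.26 ± 0.06 (SE, unadjusted p 8.43e-05), and Dyrk3, a kinase of stress granules, at 0.10 in hypercapnia and 0.50 in normocapnia, a difference of -0.40 ± 0.10 (SE, unadjusted p 0.000473). The other 6 of the 10 were Plac1, with a difference of -0.58 ± 0.14 (SE, unadjusted p 0.000301), Pdx1 of -0.53 ± 0.14 (SE, unadjusted p 0.000557), Wdr72 of -0.40 ± 0.10 (SE, unadjusted p 0.000501), Slc22a19 of -0.44 ± 0.11 (SE, unadjusted p 0.000264), Lratd1 of -0.55 ± 0.14 (SE, unadjusted p 0.000487) and Chsy3 of -0.44 ± 0.11 (SE, unadjusted p 0.000411). These had adjusted p between 0.841 and 0.997 for the difference, and none of them passed. Counts of gene lists are given side by side, hypercapnia first. Immediate-early factors were higher in 22 and 27 genes, injured epithelium genes in 16 and 17 and ribosome biogenesis genes in 17 and 23. B cell markers were higher in 6 and 9, and ciliated cell markers lower in 7 and 9. Median changes in the same order were 0.65 and 0.74, 0.52 and 0.74, 0.26 and 0.41, 0.35 and 0.38, and -0.20 and -0.18. The difference had an unadjusted p under 0.05 by limma in 3 of 31, 9 of 23, 2 of 26, 0 of 14 and 1 of 21 members. Lists not set side by side here also varied. The number was 6 of 19 EGF receptor ligands and ADAM17 regulators, 4 of 17 MAP kinase phosphatases and Sprouty genes and 4 of 12 cardiac muscle markers. It was 0 of 28 metalloproteinase, hyaluronan and provisional matrix genes and 0 of 21 interferon response genes. Over all genes this share was 4.48%, and the difference was called for 0 members.

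**Figure D5:**
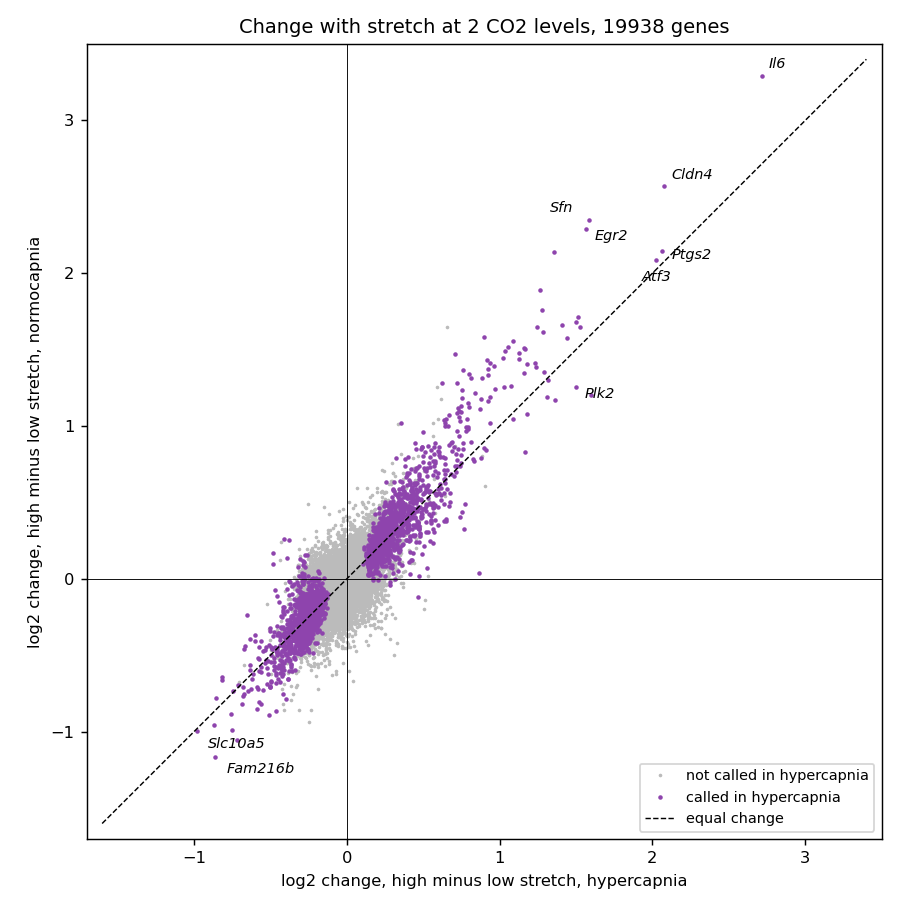
Log2 change of each of 19938 genes with high against low stretch in hypercapnia (horizontal axis) and in normocapnia (vertical axis), with genes called in hypercapnia in purple and the others in grey. Points scatter around the dashed line of equal change (Pearson r 0.776), and 31 of the 39 genes with a rise of at least 1 in hypercapnia lie above it.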

How the data were processed

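Lung RNA of 35 mice was hybridised to 35 Affymetrix arrays, and 15 of them entered the comparison. The values are log2 signals deposited by the authors, and RMA, Affymetrix Expression Console and Partek are named, without versions, per the submitters' processing notes. RMA subtracts background, equalises the distributions of arrays and summarises probes, so a shift shared by all genes cannot be seen. The array platform's gene table named 1 symbol for 21789 of 35557 probe sets, several for 1621 and did not list 12147. Probe sets with 1 symbol were kept, and for the 999 genes with more than 1 the one brightest on average across the arrays was used, which left 19938 genes.

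limma 3.58.1 under R 4.3.3 fitted 1 mean per group to the 35 arrays together, so that all groups shared 1 estimate of the spread. Calls were two-sided, at a Benjamini-Hochberg adjusted p under 0.05 over all 19938 genes. The difference between the stretch changes in hypercapnia and normocapnia was a contrast of the same model. The code was tested on simulated data. Tables and figures were made with Python 3.11.15 (pandas 2.3.3, scipy 1.17.1, matplotlib 3.10.9). Each array is 1 animal, so p-values set a difference of group means against the spread between animals, pooled over all groups.

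The text names, among called genes with a name other than a predicted gene or small RNA, the 15 largest rises and falls, the 5 smallest p in each direction and up to 6 called members of each of 52 gene lists with the largest changes (2 with the smallest p where none was called). The list also takes the 10 genes with the smallest p for the difference, and Ttpa, Adam17 and Alox5. Of 1047 listed symbols 975 were measured. The comparison, the lists and the rule were chosen with earlier results of these data known. microRNA genes and the lung markers were picked outside the rule. Alternatives changed the arrays, the scaling, the probe set per gene, the variance prior, the filter and the threshold.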

Additional observations from a re-analysis of the deposited data

Results flagged for a closer look

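In 226 named genes, the highest and lowest array of each of the 2 compared groups was set against the nearest other array of its group, and 31 of 452 gene and group pairs held an array far from the rest by Dixon's criterion. Chance alone gives about 1 in 20 groups. Values are log2 signals, each followed by that of the nearest other array of the group.

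Insig1 (11.02, nearest 10.70) and Slc22a19 (3.84, nearest 3.62) had high stretch hypercapnia replicate 1 far above the other arrays. Sfn (9.45, nearest 9.95), Lif (6.33, nearest 6.74), Krt8 (12.13, nearest 12.39), Pcna (10.05, nearest 10.21) and Lratd1 (7.98, nearest 8.40) had high stretch hypercapnia replicate 2 far below the other arrays. Ptgs2 (12.20, nearest 11.69) had high stretch hypercapnia replicate 3 far above the other arrays. Cxcl5 (7.59, nearest 6.85) had high stretch hypercapnia replicate 5 far above the other arrays. Dusp5 (8.62, nearest 8.29) and Pmvk (11.65, nearest 11.19) had high stretch hypercapnia replicate 8 far above the other arrays. Ccl2 (7.74, nearest 7.14), Oasl2 (10.73, nearest 9.71), Car13 (9.04, nearest 8.57) and Chsy3 (6.86, nearest 6.53) had high stretch hypercapnia replicate 10 far above the other arrays. Tmem100 (10.59, nearest 11.02) and Fgf10 (6.61, nearest 6.90) had high stretch hypercapnia replicate 10 far below the other arrays.

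Ccl3 (9.20, nearest 7.35), Tnip3 (7.09, nearest 6.40), Nfkbiz (9.12, nearest 8.57), Oasl2 (10.65, nearest 9.75) and Plac1 (5.24, nearest 4.86) had low stretch hypercapnia replicate 1 far above the other arrays. Smad6 (8.74, nearest 9.68) and Sox18 (8.30, nearest 8.89) had low stretch hypercapnia replicate 1 far below the other arrays. Dnajb4 (10.56, nearest 10.83) had low stretch hypercapnia replicate 2 far below the other arrays. Plau (6.63, nearest 6.46) had low stretch hypercapnia replicate 3 far above the other arrays. Ptger2 (7.60, nearest 7.38), Anxa2 (11.74, nearest 11.55), Hspa4 (10.08, nearest 9.94), Cxcr5 (5.95, nearest 5.64) and Pf4 (7.82, nearest 7.25) had low stretch hypercapnia replicate 4 far above the other arrays.

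Of the 31, 7 belonged to low stretch replicate 1, 6 to high stretch replicate 10, 5 to high stretch replicate 2 and 5 to low stretch replicate 4.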

How the results depend on the processing

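The number of arrays limits what could be called. The 2017 genes called for high against low stretch in hypercapnia became 1269 with the replicate number of the labels as a block, 979 at an adjusted p under 0.01 and 263 where a change of at least 0.5 log2 units was also asked. Without each of the 15 arrays in turn the count lay between 1278 (without low stretch replicate 5) and 2191 (without low stretch replicate 4). Other settings gave 1389 (only the 15 arrays compared) to 2209 (all probe sets). Settings chosen after seeing the data gave 1499 without high stretch replicates 8 and 10, 1503 without the 4 arrays that stood apart and 2238 with the SD over genes of each array as a covariate, of which 1007 were higher. Centring arrays on their median moved the median change of all genes by 0.03 and a second quantile normalization by 0.02. In normocapnia 3646 calls became 2170 at an adjusted p under 0.01, 478 with a change of at least 0.5 log2 units and 2626 with the block. There centring on the median gave 2202 rises among 3642 calls, 60.5% against 47.7% as deposited. The difference between the stretch changes gave 0 calls by limma in all of these fits, with 623 to 1481 genes at an unadjusted p under 0.05, or 486 of the 9969 genes above the median level. Same-numbered arrays of the 2 compared groups did not deviate together (correlations of -0.31, -0.05, 0.02, 0.24 and 0.23), so the numbers name arrays and do not pair them, and 1 of 5 high stretch arrays correlated best with its own number. Of 207 named genes called, 144 kept the call without any 1 array and 133 in all alternatives that keep the threshold, and 0 turned in direction. With only the 15 compared arrays in the limma fit, 37 lost the call. Among them were Hey1 (adjusted p 0.0823), Smad6 (0.0822), Ptger2 (0.0555) and Alox15 (0.053), which kept it without any 1 array. The replicate block ended 44 calls. Leaving out high stretch replicates 8 and 10 ended 40, among them those of Thbs1 and Ccl2.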
